A study of Mus musculus with 12 samples.

Results

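The genes described here are Prss56 and 4 other genes that set the length of the eye, Mfrp, Tmem98, Adipor1 and Crb1, 5 of the 25655 genes in the deposited count tables. They were taken by symbol. Prss56 was selected on its difference from PBS in these data, so its values against PBS are given as a description with no test, and the other 4 were listed for their role in eye length, with earlier results of these data known. The retinas came from C57BL/6J mice aged 8 to 10 weeks, and every animal, controls included, had the optic nerve of the left eye crushed (ONC) and the drug, the vesicles or the buffer injected once into the vitreous. The retina was collected whole on day 2 after ONC. The 4 groups of 3 samples were given PBS, fluvastatin (a statin, which inhibits HMG-CoA reductase), MBV (matrix-bound nanovesicles, here from porcine urinary bladder), or MBV and fluvastatin together. Named count columns exist for 9 libraries (PBS, fluvastatin and MBV, 3 per group), and the combined treatment was not analysed here.

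Eye length is set after birth, when the eye grows until the image falls on the retina. In nanophthalmos the eye is otherwise well formed but too short, which leaves it highly hyperopic. PRSS56 is a secreted serine protease made in the retina mainly by Müller glia, the radial glia that span the tissue, and mice that lack it have short eyes. MFRP is a frizzled-related membrane protein of the retinal pigment epithelium and the ciliary epithelium, and eyes of mice without Mfrp or without Adipor1 are known to carry more Prss56 mRNA. TMEM98 is a membrane protein that binds the transcription factor MYRF and limits its self-cleavage. ADIPOR1 is the receptor for adiponectin through which photoreceptors and pigment epithelium keep their docosahexaenoic acid. CRB1 is the Crumbs polarity protein of the outer limiting membrane, where Müller glia and photoreceptors adhere.

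The stretches before the start sites of Prss56 and Mfrp are shown because these are the members with the largest fold differences from PBS, in opposite directions. Both are RefSeq sequences of the build GRCm38.p6, the 250 bases before the start site on the + strand, at chr1:87183064-87183313 and chr9:44101520-44101769. Capitals mark a match to TAATCC on either strand, the core site of the CRX and OTX homeodomain proteins of photoreceptors and pigment epithelium.
Prss56: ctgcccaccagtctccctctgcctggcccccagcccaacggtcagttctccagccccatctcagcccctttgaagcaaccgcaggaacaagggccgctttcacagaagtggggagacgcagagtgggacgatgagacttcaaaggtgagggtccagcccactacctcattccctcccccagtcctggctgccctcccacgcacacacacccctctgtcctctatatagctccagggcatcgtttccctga
Mfrp: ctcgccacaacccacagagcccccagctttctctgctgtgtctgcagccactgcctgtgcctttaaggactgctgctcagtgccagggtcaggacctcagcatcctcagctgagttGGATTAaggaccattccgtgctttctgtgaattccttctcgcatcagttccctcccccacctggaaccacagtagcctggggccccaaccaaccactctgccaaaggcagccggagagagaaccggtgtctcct
The match in Mfrp is on the minus strand and begins 134 bases before the start site, and 6.25% of 32851 windows of this length hold the letters on either strand. The windows of Prss56, Tmem98, Adipor1 (2 windows) and Crb1 do not hold them. TATAAA (in 12.4% of windows) and the AP-1 site TGACTCA (4.46%) were in no window of the 5 genes. The E-box CACGTG (6.02%), which reads the same on both strands, was in the windows of Tmem98 and Crb1. These matches describe the letters alone.

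Each library held between 21349516 and 30992040 reads counted on genes, and rod and cone markers summed to 32155 to 49804 CPM (a gene's count relative to the TMM-scaled size of its library) in every library, so the markers of retina were present throughout. MBV replicate 3 stood apart: its 12 leukocyte markers summed to 137 CPM and those of the other 8 libraries to 14.0 to 36.6, so values are also given without it. Ly6g, a defining neutrophil marker, was at 0 in every library. In the labels the library numbers occur in 2 sets, the first over PBS and the combined treatment and the second over fluvastatin and MBV. A single treatment against PBS therefore runs across the sets, and set and treatment cannot be told apart there, whereas MBV and fluvastatin lie in the same set. Both single treatments were compared to the same 3 PBS libraries. Tests are from edgeR (quasi-likelihood), with p-values adjusted by Benjamini-Hochberg over all genes tested, and a gene is said to have changed at an adjusted p below 0.05.

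Prss56 (ENSMUSG00000036480, chromosome 1 of GRCm39, 87111033 to 87116130, + strand) was at 6.30, 10.6 and 8.24 CPM in the 3 PBS libraries, from 194, 312 and 217 reads. With fluvastatin it was at 44.4, 121 and 215 CPM, from 1078, 3235 and 5066 reads. With MBV it was at 208, 296 and 4.45 CPM, from 5681, 6474 and 104 reads. All 3 fluvastatin libraries and MBV replicates 1 and 2 were thus above every PBS library, and MBV replicate 3 was below every PBS library. The fitted difference from PBS was 15.1-fold with fluvastatin (log2 3.91, SE 0.488) and 20.03-fold with MBV (log2 4.32, SE 1.05). Without MBV replicate 3 the MBV difference was 4.89 on the log2 scale. Replicates of a treated group were far apart, 4.84-fold between the highest and lowest fluvastatin library and 66.5-fold between the highest and lowest MBV library, against 1.69-fold with PBS. MBV and fluvastatin, which lie in the same library set, differed by 0.42 on the log2 scale (SE 0.927, adjusted p = 0.893), and this sign turned without MBV replicate 2, to -0.25. In bulk tissue a higher level per cell and more cells that make the transcript cannot be told apart.

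**Figure D1:**
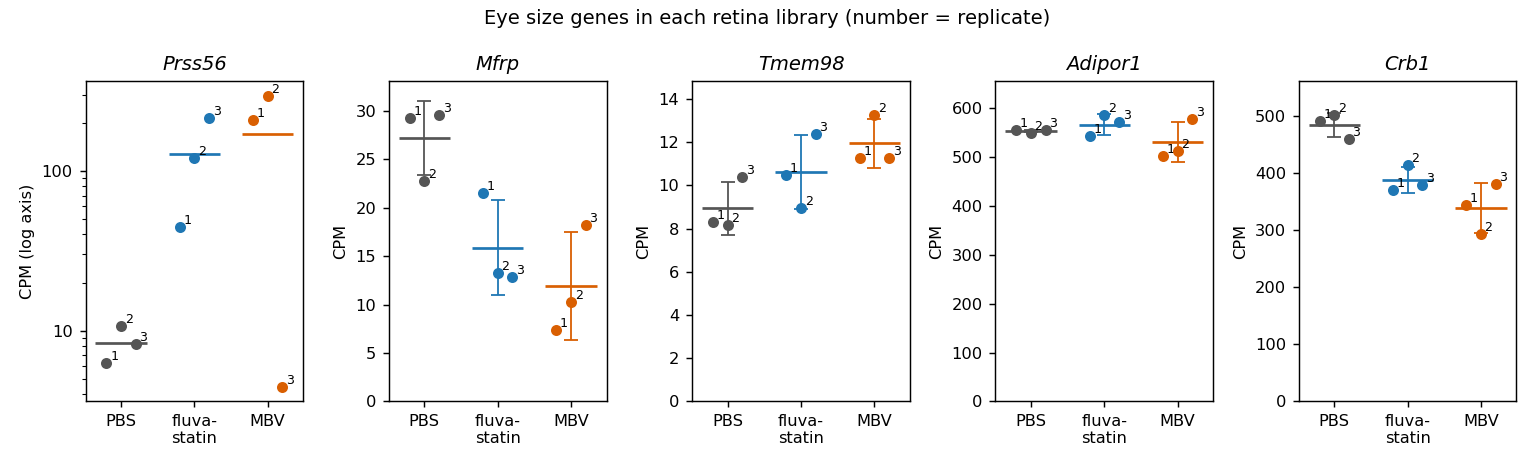
CPM of the 5 eye size genes in each library with PBS, fluvastatin or MBV, numbered by replicate. Horizontal lines are group means and, in the 4 panels with a linear axis, bars are the SD of 3 libraries. Prss56 is on a log axis, where MBV replicate 3 (4.45 CPM) lies below the PBS libraries and the other treated libraries lie above them.

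Mfrp fell in both treated groups. Mfrp (ENSMUSG00000034739, chromosome 9, 44013026 to 44020484, + strand) was at 29.3, 22.8 and 29.6 CPM with PBS, at 21.6, 13.2 and 12.9 CPM with fluvastatin and at 7.42, 10.2 and 18.2 CPM with MBV. No treated library reached the lowest PBS library, and the treated library nearest to PBS was replicate 1 with fluvastatin and replicate 3 with MBV, the same libraries in which Prss56 was lowest. Mfrp was 1.71-fold lower with fluvastatin (log2 -0.78, SE 0.178, adjusted p = 0.0132) and 2.30-fold lower with MBV (log2 -1.20, SE 0.261, adjusted p = 0.00984). Without MBV replicate 3 the MBV difference was -1.65 on the log2 scale (adjusted p = 1.5e-05). The fluvastatin call was lost without PBS replicate 1 (adjusted p = 0.0581), without fluvastatin replicate 2 (0.0733) or 3 (0.0502), and in a fit of all 9 libraries together (0.0652). MBV and fluvastatin differed by -0.42 (SE 0.304, adjusted p = 0.654).

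Crb1 fell as well, by less but with tighter replicates. Crb1 (ENSMUSG00000063681, chromosome 1, 139124794 to 139304848, minus strand) was at 491, 502 and 461 CPM with PBS, at 371, 414 and 379 CPM with fluvastatin and at 344, 294 and 381 CPM with MBV. Neither treated group overlapped PBS, and the treated groups overlapped each other. The level was 1.25-fold lower with fluvastatin (log2 -0.32, SE 0.0541, adjusted p = 0.0034) and 1.44-fold lower with MBV (log2 -0.52, SE 0.0853, adjusted p = 0.00285). These calls held with each library left out in turn. MBV against fluvastatin gave -0.19 (SE 0.0885, adjusted p = 0.478).

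Tmem98 rose with MBV. Tmem98 (ENSMUSG00000035413, chromosome 11, 80700551 to 80713109, + strand) was at 8.29, 8.19 and 10.4 CPM with PBS, at 10.5, 8.97 and 12.4 CPM with fluvastatin and at 11.3, 13.2 and 11.3 CPM with MBV. Every MBV library was above every PBS library, whereas the fluvastatin libraries overlapped both other groups. The level was 1.33-fold higher with MBV (log2 0.41, SE 0.114, adjusted p = 0.0285), and the fluvastatin difference of 0.25 (SE 0.136) had an adjusted p of 0.243. The MBV call was lost without PBS replicate 1 (adjusted p = 0.114) or 2 (0.0956) and without MBV replicate 1 (0.0553) or 2 (0.0894). MBV against fluvastatin gave 0.17 (SE 0.130, adjusted p = 0.678).

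Adipor1 passed the test in no comparison. Adipor1 (ENSMUSG00000026457, chromosome 1, 134343077 to 134361092, + strand) was at 555, 550 and 555 CPM with PBS, at 543, 586 and 572 CPM with fluvastatin and at 502, 513 and 579 CPM with MBV. The groups overlapped, and the PBS libraries varied least, with a coefficient of variation of 0.487%. The difference from PBS was 0.03 on the log2 scale with fluvastatin (SE 0.0429, adjusted p = 0.628) and -0.07 with MBV (SE 0.0562, adjusted p = 0.414), and MBV against fluvastatin gave -0.09 (SE 0.0654, adjusted p = 0.643). Without MBV replicate 3, which had the highest level of the MBV libraries, the MBV difference was -0.14 with an adjusted p of 0.0252.

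Of the 4 genes other than Prss56, 2 changed with fluvastatin, both lower, where 19.6% of 18818 genes tested changed, 9.36% higher and 10.2% lower. With MBV 3 of the 4 changed, Tmem98 higher and Mfrp and Crb1 lower, where 26.1% of 18897 genes changed, 12% higher and 14.1% lower. Between MBV and fluvastatin none of the 5 changed by edgeR's adjusted p, none had an unadjusted p below 0.05, and DESeq2 called none of them, with 1 at an unadjusted p below 0.05. In that comparison 0.0588% of 18721 genes changed, 0.0267% higher and 0.0320% lower with MBV. With so few members these shares describe the list and do not set it apart from the background. The median log2 fold change over all genes tested was -0.01, 0.01 and 0.01 in the 3 comparisons.

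**Figure D2:**
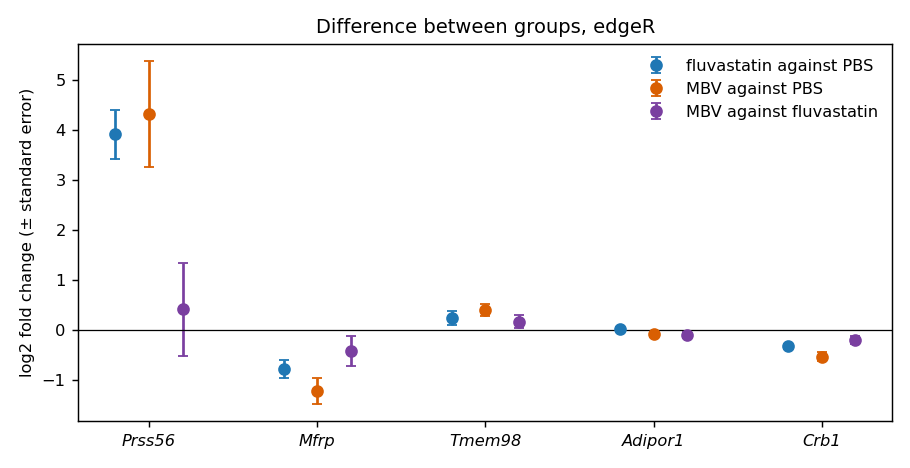
Log2 fold change of each eye size gene with its standard error in the 3 comparisons, from edgeR. Prss56 lies at 3.91 and 4.32 against PBS and near 0 with a wide error between the treatments, Mfrp and Crb1 lie below 0 against PBS, and Adipor1 lies near 0 throughout.

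Per kilobase of the canonical transcript, the level of Adipor1 in PBS was 159 CPM per kb and that of Crb1 81.6. Mfrp (6.30 CPM per kb), Tmem98 (4.75) and Prss56 (3.84) followed, and each of these overlapped its neighbour in the order. With fluvastatin Prss56 stood at 58.0 CPM per kb, beside Crb1 at 65.4, and their libraries overlapped. With MBV the mean of Prss56 was 77.5 CPM per kb, and its range, stretched by replicate 3, overlapped those of Crb1, Tmem98 and Mfrp. Mfrp had the lowest mean of the 5 in both treated groups, at 3.68 CPM per kb with fluvastatin and 2.77 with MBV. Tmem98, at 5.64 and 6.34 CPM per kb, overlapped Mfrp with fluvastatin and not with MBV.

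Across the 9 libraries, Prss56 and Mfrp ran opposite to each other (Pearson r -0.85, Spearman coefficient -0.767 on log2(CPM + 0.5), and r -0.703 over the 6 treated libraries). Tmem98 and Crb1 also ran opposite (r -0.872, and -0.774 over the 6 treated libraries). Mfrp and Crb1 ran together (r 0.784), less so over the 6 treated libraries (0.488). For Adipor1 and Crb1 r was 0.513, and 0.823 over the 6 treated libraries. These coefficients are descriptions, since the libraries share groups and library sets. The genes most like Prss56 among 13970 with a mean of at least 1 CPM were Nkd1 (r 0.971), a Dishevelled-binding antagonist of Wnt signaling, then Macroh2a1 (0.953), Adamts19 (0.947), Minar2 (0.943) and Mars1 (0.942). Nkd1 was at 22.5, 21.5 and 20.7 CPM with PBS, at 37.0, 60.6 and 66.9 CPM with fluvastatin and at 62.3, 82.9 and 25.4 CPM with MBV. Adamts19, a secreted metalloprotease, was at 1.17, 1.54 and 0.836 CPM with PBS, at 5.15, 6.65 and 10.3 CPM with fluvastatin and at 13.2, 11.2 and 2.27 CPM with MBV. In both, as in Prss56, fluvastatin replicate 1 was the lowest of its group and MBV replicate 3 was far below the other MBV libraries. Macroh2a1 ran over a much narrower span, from 111 to 124 CPM, in nearly the order of Prss56 (Spearman coefficient 0.933).

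For Mfrp the most alike genes were Slc13a3 (r 0.993), a sodium-dicarboxylate transporter, Cspg4b, Atp6v0c, Ndufa2 and Ap1ar, with r down to 0.967. Slc13a3 was at 2.83, 2.29 and 2.85 CPM with PBS, at 2.06, 1.495 and 1.48 CPM with fluvastatin and at 0.950, 1.23 and 2.14 CPM with MBV, so the same libraries were low. For Tmem98 they were Spsb2 (r 0.967), Lsm14a, S100a11, Nt5dc3 and Plekhg2. For Adipor1 they were Ldha (r 0.959), which encodes lactate dehydrogenase A, Rbp3 (0.942), the interphotoreceptor retinoid-binding protein, Rnf220, Sgtb and Nlrp5. For Crb1 they were Ufsp2 (r 0.986), Tsn, Etv1, Ankra2 and Gnb1, the last encoding the beta subunit of rod transducin (0.976).

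The genes beside the members differed in their behaviour. Next to Prss56, Ecel1 (26789 bases away) was at 9.13 to 13.7 CPM with PBS, 7.55 to 12.2 with fluvastatin and 5.59 to 13.5 with MBV, and passed no test (adjusted p = 0.339 and 0.294 against PBS). Chrnd, 2175 bases away on the other side, had no read in any PBS or fluvastatin library. It had reads with MBV and did not pass the test there (log2 3.97, SE 1.93, adjusted p = 0.182 against PBS). Mfrp overlaps C1qtnf5 on its own strand and Rnf26 and Gm49380 on the other, and the strand setting of the authors' counting is not given in the sources used here, so shared reads cannot be assigned with certainty. None of the 3 passed edgeR's test, and C1qtnf5 was at 1.43, 0.614 and 1.18 CPM with PBS (adjusted p = 0.373 with fluvastatin, 0.85 with MBV). The genes on either side of Mfrp were higher with MBV, where Mfrp was lower. Usp2, a deubiquitinase, was at 133, 132 and 125 CPM with PBS, at 147, 130 and 125 CPM with fluvastatin and at 225, 211 and 252 CPM with MBV. It was 1.75-fold higher with MBV than with PBS (adjusted p = 0.000332) and 1.71-fold higher than with fluvastatin (adjusted p = 0.0172), within the same library set. The second call was lost without fluvastatin replicate 2 (adjusted p = 0.0824) or 3 (0.145), without MBV replicate 1 (0.128) and with the replicate number as a block (0.163). Mcam, an adhesion molecule of vessel walls, was 1.84-fold higher with fluvastatin (adjusted p = 0.00299) and 2.06-fold higher with MBV (adjusted p = 0.00121) than with PBS. Both neighbours of Crb1 were lower, Dennd1b 1.17-fold with fluvastatin and 1.30-fold with MBV, and Zbtb41 1.23-fold and 1.20-fold (adjusted p = 0.000657 to 0.00725 over the 4 tests). Beside Adipor1, Klhl12 was lower (1.13-fold and 1.16-fold, adjusted p = 0.0308 and 0.0361), and Cyb5r1 did not pass the test (0.631 and 0.0636). Myo1d and Spaca3, beside Tmem98, did not pass it either.

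Among the other nanophthalmos and high hyperopia genes, 1 of 3 changed, Myrf, and it rose with both treatments. Of all genes, 19.6% changed with fluvastatin and 26.1% with MBV. A count of 1 of 3 therefore sets neither this list nor the TMEM98 partners below apart. Myrf, the partner of TMEM98 and a transcription factor of pigment epithelium and oligodendrocytes, was at 3.93, 5.12 and 4.18 CPM with PBS, at 6.96, 9.72 and 12.6 CPM with fluvastatin and at 7.34, 10.8 and 8.90 CPM with MBV. Every treated library was above every PBS library. It was 2.21-fold higher with fluvastatin (log2 1.14, SE 0.2004, adjusted p = 0.00405) and 2.02-fold higher with MBV (log2 1.02, SE 0.165, adjusted p = 0.00275). Unlike Prss56, its level in MBV replicate 3 lay between those of the other MBV libraries. Best1, a chloride channel of pigment epithelium, was at 0.409 to 0.715 CPM with PBS and did not pass the test (adjusted p = 0.837 with fluvastatin, 0.52 with MBV). Frat1 and Frat2, other partners of TMEM98 that restrain glycogen synthase kinase, did not pass it (adjusted p = 0.171 and 0.19 with fluvastatin, 0.52 and 0.735 with MBV), so Myrf was the only 1 of 3 partners to change.

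Of 11 genes around adiponectin receptors and docosahexaenoic acid, 1 rose and 2 fell with fluvastatin, and 3 rose and 2 fell with MBV, with median log2 fold changes of 0.02 and 0.00. Over all genes 9.36% were higher and 10.2% lower with fluvastatin, and 12% and 14.1% with MBV, so these counts do not set the list apart. Appl1, the adaptor that binds ADIPOR1, was at 174 to 175 CPM with PBS, 144 to 151 with fluvastatin and 136 to 145 with MBV, 1.18-fold and 1.24-fold lower (adjusted p = 0.00395 and 0.00119). Adipor2, the sister receptor, was 1.14-fold higher with MBV (adjusted p = 0.0118). Cdh13, a cadherin that captures adiponectin at the cell surface, was 1.54-fold and 1.58-fold higher (adjusted p = 0.0433 and 0.0254). Mfsd2a, the carrier of docosahexaenoic acid, was 1.87-fold higher with MBV (adjusted p = 0.0168), from 1.23 to 1.75 CPM with PBS to 2.18 to 2.97. Of the fatty acid elongases, Elovl2 was 1.11-fold lower with fluvastatin (adjusted p = 0.0497) and Elovl4 1.19-fold lower with MBV (adjusted p = 0.0415).

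Of 13 Crumbs and apical Par complex partners of CRB1, 2 rose and 1 fell with each treatment, with a median log2 fold change of -0.06 with fluvastatin and 0.06 with MBV. These 3 of 13 lie near the share of all genes that changed (19.6% with fluvastatin, 26.1% with MBV), so the members below are described one by one. Mpp5, which encodes the PALS1 scaffold that binds the tail of Crumbs, was at 96.7 to 101 CPM with PBS, 81.8 to 88.9 with fluvastatin and 85.1 to 87.3 with MBV. It was 1.16-fold lower with either treatment (adjusted p = 0.0111 and 0.00557). Prkcz, an atypical protein kinase C, was 1.21-fold and 1.25-fold higher (adjusted p = 0.00516 and 0.00154), and Pard6b, its Par6 adaptor, 1.14-fold and 1.15-fold higher (adjusted p = 0.043 and 0.0288). Crb2, the paralog in the same membrane, was at 94.3 to 106 CPM with PBS and did not pass the test (adjusted p = 0.237 and 0.353).

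Of 19 microphthalmia genes, 1 rose and 3 fell with fluvastatin, and 3 rose and 5 fell with MBV. Fzd5, a frizzled receptor, was 1.26-fold and 1.30-fold lower (adjusted p = 0.00171 and 0.00064), and Six6 1.14-fold and 1.30-fold lower (adjusted p = 0.0297 and 0.000968). Stra6, the retinol-binding protein receptor, was 1.90-fold and 1.66-fold higher (adjusted p = 0.00868 and 0.0254). With MBV alone, Aldh1a3, an enzyme of retinoic acid synthesis, was 2.23-fold higher (adjusted p = 0.029) and Bmp4, a growth factor of eye formation, 2.11-fold lower (adjusted p = 0.02). Whether these 2 differences differ from those with fluvastatin was tested between the treatments and did not pass (adjusted p = 0.437 and 0.725). Of 22 myopia genes, 2 rose and 1 fell with fluvastatin, and 2 rose and 2 fell with MBV. Zfp644 was lower with both, 1.26-fold and 1.34-fold (adjusted p = 0.00218 and 0.000574). Rdh5 (1.86-fold, adjusted p = 0.0294) and Xylt1 (1.14-fold, adjusted p = 0.0324) were higher with fluvastatin. With MBV, P4ha2 (1.33-fold, adjusted p = 0.00797) and Rasgrf1 (1.18-fold, adjusted p = 0.024) were higher and Lama2 was 1.42-fold lower (adjusted p = 0.0358). Over all genes 19.6% changed with fluvastatin and 26.1% with MBV. Of the microphthalmia list, 4 of 19 changed with fluvastatin, near that share, and 8 with MBV. Of the 22 myopia genes, 3 and 4 changed by edgeR, and DESeq2 called 5 and 4. No set test was run on either list.

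Among retinal signals of eye growth, 2 of 17 fell and none rose with fluvastatin, and 1 of 18 fell with MBV. Over all genes 9.36% rose and 10.2% fell with fluvastatin, and 14.1% fell with MBV. The counts of this list therefore do not set it apart. Igf1 was 1.29-fold lower with fluvastatin and 1.32-fold lower with MBV (adjusted p = 0.00628 and 0.00338). Bmp2, a growth factor whose level in the pigment epithelium follows the direction of eye growth in birds, was also among the genes most opposite to Prss56 (r -0.965). It was at 8.68, 5.80 and 8.89 CPM with PBS, at 5.36, 1.72 and 1.19 CPM with fluvastatin and at 1.28, 1.32 and 7.61 CPM with MBV. The libraries with high Prss56 thus had low Bmp2, and MBV replicate 3 lay among the PBS libraries. Bmp2 was 2.83-fold lower with fluvastatin (adjusted p = 0.028), and with MBV the log2 difference was -1.21 (adjusted p = 0.149), or -2.59 without replicate 3 (adjusted p = 1.55e-05). Without that replicate the MBV counts for this list were 2 higher, Tgfb2 and Fgf2, and 3 lower, where 30.1% of 18793 genes changed, 14.0% higher and 16.1% lower, so these counts are near the background.

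**Figure D3:**
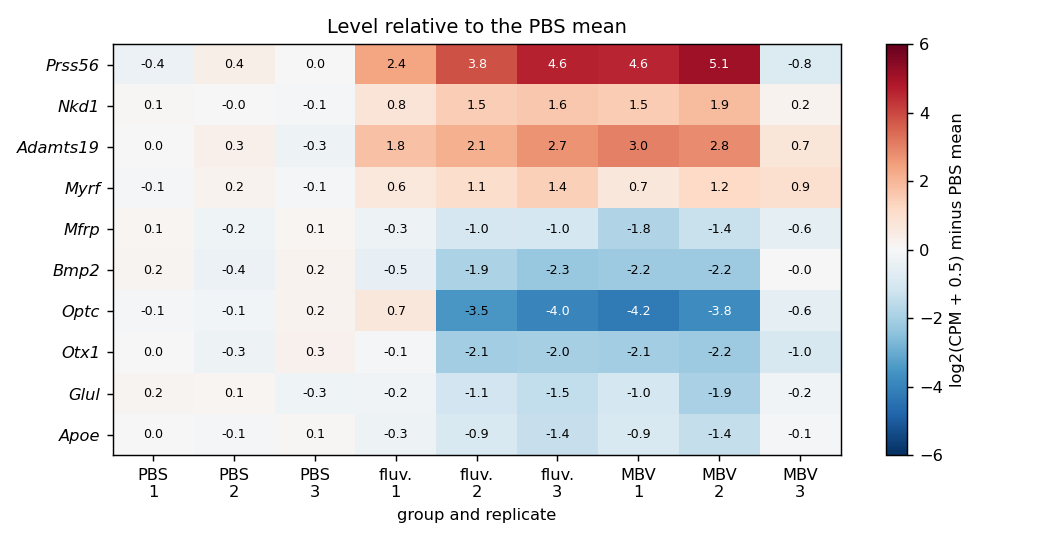
Log2(CPM + 0.5) minus the PBS mean for Prss56, genes like it (Nkd1, Adamts19), Myrf, Mfrp and genes that ran opposite to it, chosen for display after their values were seen, in each of the 9 libraries. Red is above and blue below the PBS mean, and fluvastatin replicates 2 and 3 and MBV replicates 1 and 2 have Optc between -3.5 and -4.2, where fluvastatin replicate 1 is at 0.70 and MBV replicate 3 at -0.59. Prss56 is 2.36 above the PBS mean in fluvastatin replicate 1, and Myrf is above it in every treated library.

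Markers of the cells known to carry these genes also differed between the groups, for Müller glia in the direction opposite to Prss56. Müller glia markers summed to 5071 to 5577 CPM with PBS, to 4571, 3182 and 2960 with fluvastatin and to 3515, 2740 and 4558 with MBV, and in each treated group they were lowest in the library where Prss56 was highest. Of 12 markers, 7 fell with fluvastatin and 4 with MBV (7 lower and Sox9 higher without MBV replicate 3), and none rose in the fits of all libraries, with median log2 fold changes of -0.26 and -0.24. The share of all genes that fell was 10.2% with fluvastatin and 14.1% with MBV (16.1% without MBV replicate 3). Dkk3 was 1.48-fold and 1.47-fold lower (adjusted p = 0.00216 and 0.00426) and Rlbp1, the retinaldehyde carrier, 1.22-fold and 1.31-fold lower (adjusted p = 0.00218 and 0.00056). Glul and Apoe, chosen after their values were seen, followed the library pattern more closely. Glul, glutamine synthetase, was at 1997, 1059 and 819 CPM with fluvastatin and at 1119.9, 598 and 1965 CPM with MBV, against 1915 to 2592 with PBS. Glul was thus a large part of the summed Müller level, and the order of the sums rests heavily on this gene. Of 14 reactive glia genes none passed edgeR's adjusted p against PBS with all libraries, 3 with fluvastatin and 2 with MBV had an unadjusted p below 0.05, and DESeq2 called none, with none at an unadjusted p below 0.05. The list summed to 799, 746 and 1331 CPM with PBS and to 991, 918 and 1297 with fluvastatin. With MBV it summed to 1323, 1634.5 and 926, so PBS replicate 3 lay among the higher treated libraries. Without MBV replicate 3 the MBV comparison with PBS gave 7 higher and none lower, where 14.0% and 16.1% of all genes were. Cebpd (log2 2.12, adjusted p = 0.0023), Stat3 (0.95, 0.00381) and Vim (0.81, 0.000158) were among them. The part of Müller glia in the level of Prss56 was not tested.

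Ciliary epithelium markers, from a tissue that expresses Mfrp, summed to 69.2 to 89.7 CPM with PBS, to 85.0, 36.5 and 33.8 with fluvastatin and to 32.6, 31.4 and 59.0 with MBV. Fluvastatin replicate 1 and MBV replicate 3 were the highest of their groups, as for Mfrp. Of 7 markers, 2 fell with fluvastatin and 3 with MBV (5 without MBV replicate 3), and none rose. Over all genes 10.2% fell with fluvastatin and 14.1% with MBV (16.1% without MBV replicate 3). Zic1 was 2.34-fold and 2.48-fold lower (adjusted p = 0.00935 and 0.00562), Zic2 1.69-fold and 1.86-fold lower (adjusted p = 0.0135 and 0.0173), and Otx1 4.41-fold lower with MBV (adjusted p = 0.00712). Optc, the proteoglycan opticin of the ciliary epithelium and vitreous, chosen after its values were seen, was at 23.0, 21.8 and 28.2 CPM with PBS. It was at 39.6, 1.68 and 1.06 CPM with fluvastatin and at 0.804, 1.28 and 15.9 CPM with MBV. It did not pass the test with all libraries (adjusted p = 0.549 and 0.0703), and without MBV replicate 3 its MBV difference was -4.58 on the log2 scale (adjusted p = 6.7e-08). How much ciliary tissue each dissected retina held, and its part in the fall of Mfrp, was not tested.

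Retinal pigment epithelium and pigment cell markers, the other source of Mfrp, summed to 532 to 607 CPM with PBS, 461 to 520 with fluvastatin and 444 to 562 with MBV. Of 17 markers, 5 rose and 6 fell with fluvastatin, and 2 rose and 6 fell with MBV. The markers that fell were mostly genes of pigment synthesis, such as Pmel (4.02-fold and 5.43-fold lower, adjusted p = 9.23e-05 and 0.000307), Dct (3.19-fold and 3.31-fold, 0.000467 and 0.000599) and Tyr (3.38-fold and 4.63-fold, 0.000624 and 0.00216). Pmel was at 16.3 to 20.8 CPM in the PBS libraries and at 2.51 to 5.31 CPM in every treated library, without the exception that MBV replicate 3 made for Prss56. Rpe65, the isomerase of the visual cycle, was at 3.76 to 6.24 CPM with PBS and did not pass the test (adjusted p = 0.122 and 0.52). Mfrp thus fell beside pigment synthesis and ciliary genes, while Ttr (2.22-fold and 1.83-fold, adjusted p = 0.00909 and 0.0223) and Stra6, pigment epithelium genes of retinol transport, rose. The part of pigmented tissue in the level of Mfrp was not tested.

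**Figure D4:**
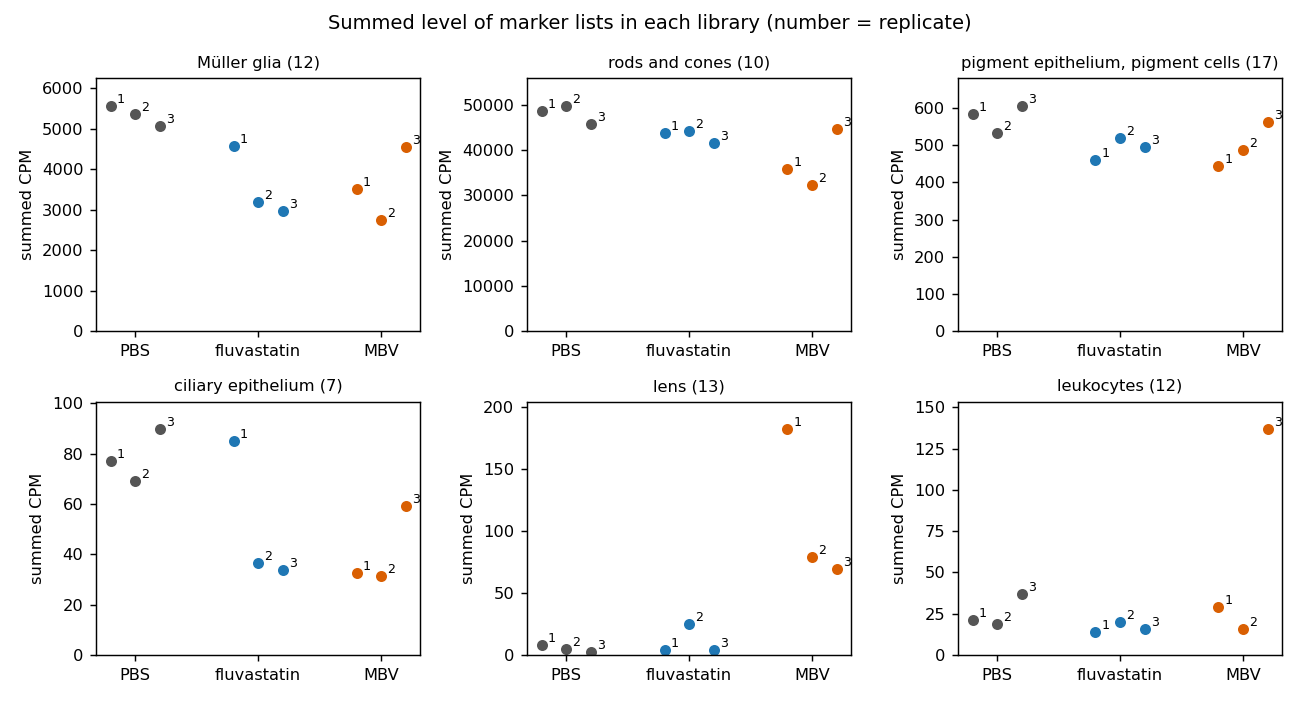
Summed CPM of 6 marker lists in each library, numbered by replicate, with the number of genes in brackets and each axis starting at 0. Ciliary and Müller markers are lowest in fluvastatin replicates 2 and 3 and MBV replicates 1 and 2, leukocyte markers are high in MBV replicate 3 (137 CPM), and lens markers are high in all MBV libraries.

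Lens markers summed to 2.66 to 7.99 CPM with PBS, 3.65 to 24.5 with fluvastatin and 68.9 to 182 with MBV. Of 13 markers, 12 rose with MBV, led by the crystallins Cryba1 and Cryaa, at 11.5 to 29.1 and 26.9 to 55.1 CPM with MBV, and 1, Bfsp2, fell with fluvastatin. These levels were high in MBV replicate 3 too, in which Prss56 was low. DESeq2 called 0 lens markers with fluvastatin. Of 10 rod and cone markers, 1 fell with fluvastatin, 6 fell with MBV and none rose. Among the 6 was Rp1, a protein of the photoreceptor axoneme (1.27-fold, adjusted p = 0.00685). With fluvastatin DESeq2 called 4 rod and cone markers. Over all genes 10.2% fell with fluvastatin, and 12% rose and 14.1% fell with MBV. The 1 lens marker and the 1 rod and cone marker that fell by edgeR with fluvastatin therefore do not set those lists apart. Crb1, which photoreceptors share with Müller glia, was 1.25-fold and 1.44-fold lower beside the rod and cone markers. The part of photoreceptor RNA in this was not tested. Of 11 leukocyte markers tested, 3 fell with fluvastatin, H2-Aa, Lyz2 and S100a8, and none passed with MBV, where 1 library was high (3 at an unadjusted p below 0.05 by edgeR and 3 by DESeq2, which called none). Between MBV and fluvastatin none of the 167 genes of the 14 lists that were tested passed edgeR's adjusted p with all libraries, 40 had an unadjusted p below 0.05, and DESeq2 called 7, with 38 at an unadjusted p below 0.05. Without MBV replicate 3 the counts were 8 lens markers higher, 4 rod and cone markers lower, 2 growth signals higher, 2 reactive glia genes higher and 1 Müller marker higher, where 0.581% of 18590 genes were higher and 0.479% lower. Without that replicate, Prss56 was 0.99 higher with MBV than with fluvastatin on the log2 scale (adjusted p = 0.304) and the difference of Mfrp was -0.86 (adjusted p = 0.0945).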

How the data were processed

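RNA of whole retinas was sequenced after a TruSeq total RNA preparation. CLC Genomics Workbench was used by the authors for alignment to GRCm39 and for read counting, and the 4 deposited tables hold raw counts, not normalized. The tables also hold the authors' fold changes, p-values and FDRs, which were not used. In the table of the combined treatment 6 count columns carry no library name and were used in no step. Columns repeated between tables were identical (9 of 9).

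The tests used edgeR 4.0.16 (R 4.3.3): TMM, genes with at least 1 count among the 6 libraries of a comparison, glmQLFit and glmQLFTest in a fit of the 2 groups alone, Benjamini-Hochberg adjustment, threshold 0.05. DESeq2 1.42.0 was an alternative. The procedure was tested on simulated data. Python 3.11.15, numpy 2.4.6, pandas 2.3.3 and matplotlib 3.10.9 did the rest. Positions are from GENCODE mouse release M39, and promoters from RefSeq (GRCm38.p6). Likeness is the Pearson correlation of log2(CPM + 0.5) over 9 libraries, CPM being counts relative to the TMM-scaled library size.

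The members, the 14 lists and the tests were chosen with earlier results of these data known. Named genes are the members, the 5 most alike to each, adjacent and overlapping genes, all members of the first 4 lists where they bear on a member, and from each other list those past the threshold, or the 4 with the smallest adjusted p. Others are marked where they appear, and results for some genes of the lists are not reported here. The labels do not say whether the 3 samples of a group came from separate animals, so p-values measure the spread between these samples. Lists without MBV replicate 3, and Usp2 under each setting, were added after seeing the data.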

Additional observations from a re-analysis of the deposited data

How the results depend on the processing

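The combined treatment against PBS and the fits over both library sets were not run. The count columns of the combined treatment carry no library name and were not matched to libraries. Of the tested differences of the 5 genes under the alternatives, 132 kept direction and side of the threshold, 9 lost the threshold, 1 passed it and 1 turned its sign. The untested differences of Prss56 from PBS (22) kept their direction. Prss56 was selected on this difference in the same libraries, so this is a description and gives it no support. Prss56 between MBV and fluvastatin ranged from -0.25 (without MBV replicate 2, where its sign turned) to 1.02 with a replicate left out. The number of members called with fluvastatin was 2, and 1 in a fit of all 9 libraries (1 to 2 with each replicate left out). Genes called with fluvastatin ranged from 1726 (without PBS replicate 1, and 2113 without fluvastatin replicate 2) to 4402 and with MBV from 2711 (without PBS replicate 1) to 5664 with a replicate left out. Genes called between MBV and fluvastatin were 11, and 5 with at least 10 counts in 2 libraries, 122 by DESeq2, 38 in a fit of all 9 libraries, and 0 (without MBV replicate 1, with 1347 at an unadjusted p below 0.05) over 2 (without fluvastatin replicate 2 or 3) and 22 (without fluvastatin replicate 1) to 197 (without MBV replicate 3) with a replicate left out. The cause was not tested. Deviations of same-numbered libraries correlated at -0.429 to 0.19. With 3 libraries per group, these values cannot show whether the replicate numbers pair the samples. With the replicate numbers as a block edgeR called 3727, 3876 and 0 genes in the 3 comparisons (1631 at an unadjusted p below 0.05 in the last). Tmem98 with MBV then had an adjusted p of 0.0577. With a minimum mean of 10 CPM, 3 of the 5 genes most like Mfrp and 2 of the 5 most like Tmem98 were the same.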
